A study of Mus musculus with 2 samples.

Results

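The 9 genes described here code for synaptic organizers, adhesion proteins that join the presynaptic and the postsynaptic membrane. They were taken by symbol from the 31053 Ensembl genes of the count tables and comprise the neurexins *Nrxn2* and *Nrxn3*, the neuroligins *Nlgn1*, *Nlgn2* and *Nlgn3*, and the leucine-rich repeat transmembrane genes *Lrrtm1*, *Lrrtm2*, *Lrrtm3* and *Lrrtm4*. All 9 were present in both libraries. They were measured in single nuclei of the olfactory bulb (OB) of adult wild-type (WT) mice. Each mouse group carried retroAAV-CAG-H2B-GFP, a virus that travels back along axons and expresses a nuclear green fluorescent protein from the broadly active CAG promoter. It had been injected into the anterior olfactory nucleus (AON) or into the posterior piriform cortex (pPCx), and green OB nuclei were sorted by fluorescence and turned into 10x 3′ libraries, 1 per group. The pPCx library came from 1 female mouse, the AON animal is not described in the sources used here beyond adult and WT, and the virus can also enter axons that only pass the injected site.

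Neurexins sit mainly on presynaptic terminals, and neuroligins and LRRTM proteins are their partners on the facing dendrite. Neuroligin 1 is known from excitatory synapses, neuroligin 2 from inhibitory synapses and neuroligin 3 from both, while LRRTM proteins are known from excitatory synapses and LRRTM4 also binds heparan sulfate proteoglycans. Mitral cells (MCs) and tufted cells (TCs) are the neurons whose axons leave the OB. Their dendrites form reciprocal synapses with the dendrites of GABAergic granule and periglomerular cells, so that a single cell is both presynaptic and postsynaptic there, and their axons make synapses in olfactory cortical areas such as the AON and pPCx.

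After nuclei with fewer than 1000 genes were removed, 102 AON and 63 pPCx nuclei remained, and the libraries shared 0 cell barcodes. A nucleus was called a projection neuron when the UMIs (unique molecular identifiers, each standing for 1 counted RNA molecule) of *Slc17a7*, *Slc17a6*, *Tbx21* and *Cdhr1* together exceeded those of *Gad1*, *Gad2* and *Slc32a1*. It was called GABAergic when the reverse held with at least 3 UMIs of the latter 3 genes, and all others were called remaining. The AON library held 25 projection neurons (1117466 UMIs), 47 GABAergic nuclei (1271188 UMIs) and 30 remaining nuclei (479744 UMIs), and the pPCx library held 59 projection neurons (2328340 UMIs), 2 GABAergic and 2 remaining nuclei. The 4 projection neuron markers summed to 500.2 CPM (counts per 1000000 UMIs of the group) in AON and 545 CPM in pPCx projection neurons, against 7.87 CPM in AON GABAergic nuclei. As these markers define the classes, the gap follows from the rule and is no separate evidence of identity. The label was weak for 10 of the 25 AON projection neurons, which had 3 or fewer excitatory marker UMIs and at most 14035 UMIs each. Therefore values are also given for the 14 AON and 53 pPCx projection neurons with 10 or more such UMIs, called marker-rich below. Astrocyte markers summed to 125 CPM in AON projection neurons and to 6.44 CPM in pPCx projection neurons, and 1 AON nucleus reached 4631 CPM. The part of these markers in the results was not tested. With 1 library per group there is no replicate check and no test: intervals are exact 95% intervals that cover counting error only, every comparison is between these libraries, and fewer cells of a subtype cannot be told apart from less RNA per cell in summed values.

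Genes with promoters in the RefSeq table (GRCm38.p6) numbered 6 of the 9, with 10 promoters in all, each searched over the 250 bases before the start. The promoters of *Lrrtm4* and *Lrrtm3* are printed because both genes were higher in the same division of pPCx projection neurons, described below. The *Lrrtm4* sequence is the first of its 2 promoters, on the + strand at chr6:80018627-80018876, and capitals mark the E-box letters CAGCTG. The *Lrrtm3* sequence lies on the - strand at chr10:64090256-64090505 and held none of the motifs searched.
*Lrrtm4*: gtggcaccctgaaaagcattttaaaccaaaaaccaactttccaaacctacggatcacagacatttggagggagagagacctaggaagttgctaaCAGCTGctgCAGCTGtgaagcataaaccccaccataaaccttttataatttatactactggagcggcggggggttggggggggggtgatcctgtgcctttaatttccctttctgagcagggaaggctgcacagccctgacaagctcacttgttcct
*Lrrtm3*: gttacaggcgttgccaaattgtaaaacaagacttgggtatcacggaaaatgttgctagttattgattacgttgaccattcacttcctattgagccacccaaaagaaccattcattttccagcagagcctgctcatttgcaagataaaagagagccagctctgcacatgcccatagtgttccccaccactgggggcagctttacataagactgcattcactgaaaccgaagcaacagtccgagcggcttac

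On both strands, CCCNNGGG (the core of the letters bound by EBF factors) was found in 11.8% of 32851 RefSeq promoters of the same length, the T-box letters AGGTGTGA in 1.12% and CAGCTG in 13.0%. The 10 member promoters held no match to the first 2. CAGCTG occurred in both *Lrrtm4* promoters, with 2 matches in the first and 1 in the second, and with 1 match in the *Nlgn2* promoter, and these matches did not overlap each other.

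The members differ greatly in size and surroundings (GRCm38, GENCODE M21). *Nrxn3* spans 1612.06 kb (chr12:88722876-90334935), *Nlgn1* 906 kb (chr3:25426215-26332460) and *Lrrtm4* 791 kb (chr6:80018877-80810143), while *Nlgn2* spans 14.7 kb (chr11:69823122-69837784). *Nrxn2* lies at chr19:6418731-6544169, *Nlgn3* at chrX:101299168-101325963, *Lrrtm1* at chr6:77242689-77257791, *Lrrtm2* at chr18:35209003-35215024 and *Lrrtm3* at chr10:63928472-64090277. The last 3 sit within genes of the alpha-catenin family on the opposite strand: *Lrrtm1* in *Ctnna2*, *Lrrtm2* in *Ctnna1* and *Lrrtm3* in *Ctnna3*. Exons of *Lrrtm2* overlap exons of its host, and exons of *Nrxn2*, *Nlgn1* and *Lrrtm4* overlap antisense genes, so their reads are uncertain where strand was not used in counting. Because nuclear RNA holds much unspliced RNA and long genes can gather more of it, levels are compared only across groups within a gene.

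**Figure D1:**
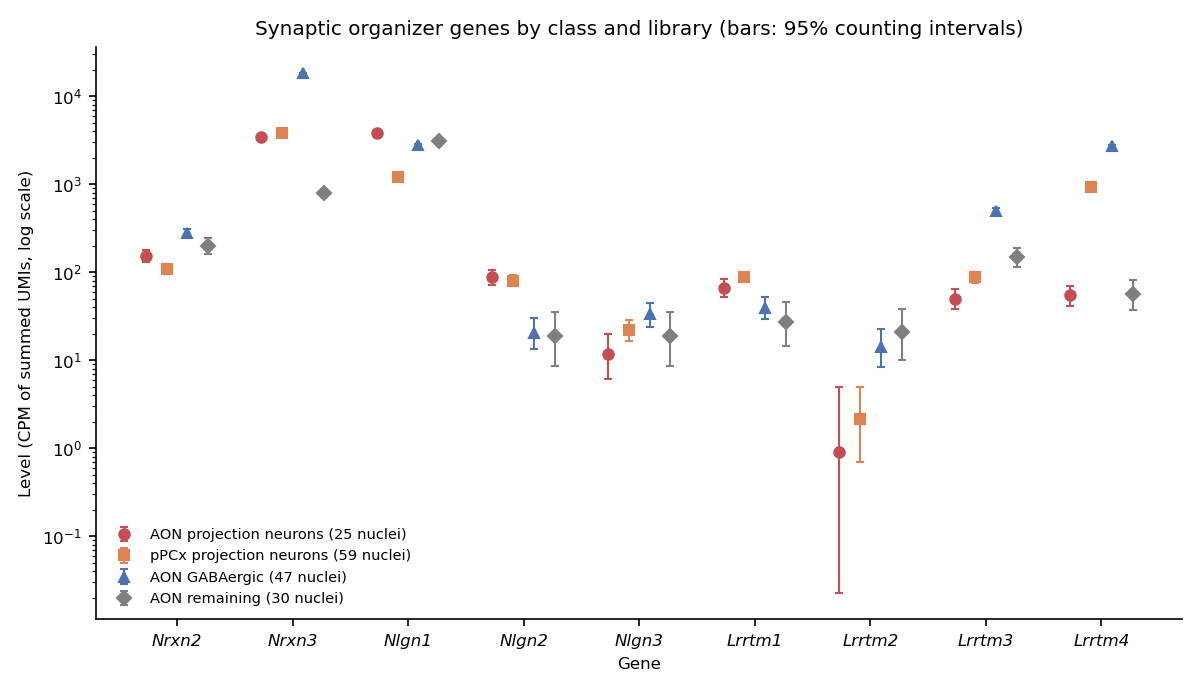
Level of each gene in CPM of summed UMIs (log axis) in AON projection neurons (25 nuclei), pPCx projection neurons (59), AON GABAergic nuclei (47) and AON remaining nuclei (30), with exact 95% Poisson intervals that cover counting error only. *Lrrtm4* lay at 54.6 CPM in AON and 938 CPM in pPCx projection neurons, and *Nrxn3* reached 18022 CPM in GABAergic nuclei.

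Between the projection neurons of both libraries, *Lrrtm4* and *Nlgn1* stood apart and the other tested members lay within 2-fold. Of the 8 members with at least 20 UMIs over both groups, 1 was 2-fold or more higher in AON (*Nlgn1*) and 1 was 2-fold or more lower (*Lrrtm4*), where 6.66% and 9.82% of 11172 tested genes were that much higher and lower (16.5% in either direction). The median log2 ratio was -0.28 over the 8 members and -0.06 over all tested genes. *Lrrtm2* did not reach the minimum, with 1 UMI in AON and 5 UMIs in pPCx projection neurons.

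*Lrrtm4* measured 54.6 CPM (41.8 to 70.1, 61 UMIs) in AON and 938 CPM (899 to 978, 2183 UMIs) in pPCx projection neurons, a 17.2-fold higher level in pPCx (13.3 to 22.5). Per nucleus it ranged from 0 to 640 CPM with a median of 26.1 in AON and from 0 to 6727 CPM with a median of 528 in pPCx. The nuclei overlapped at the low end, and 26 of the 59 pPCx nuclei exceeded every AON nucleus. In the marker-rich nuclei the levels were 47.9 and 964 CPM. A single nucleus held 39.3% of the AON UMIs of *Lrrtm4*. The AON level was close to the 56.3 CPM (37.1 to 81.9) of the remaining AON nuclei, mostly glia by their markers. After thinning to 3000 UMIs per nucleus, a *Lrrtm4* UMI was found in 24.0% of AON projection neurons (9.36 to 45.1). For remaining nuclei the share was 13.8% (3.89 to 31.7). These intervals overlap and the remaining nuclei reached 1011 CPM, so the values cannot tell whether the low AON level is expression. The unthinned shares were 68.0% and 36.7%, at median depths of 38129 and 14336 UMIs.

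*Nlgn1*, a postsynaptic neurexin receptor, measured 3787 CPM (3674 to 3903, 4232 UMIs) in AON and 1217 CPM (1173 to 1263, 2834 UMIs) in pPCx projection neurons, 3.11-fold higher in AON (2.97 to 3.26). The median nucleus did not show this difference, at 1215 CPM in AON and 1223 CPM in pPCx. The AON nuclei were spread more widely, from 0 to 15836 CPM against 115 to 2996 CPM, and 10 of 25 AON nuclei exceeded the highest pPCx nucleus. Among marker-rich nuclei, 7 of 14 did so, the levels were 3746 and 1210 CPM (3.10-fold, 2.95 to 3.25), and the medians were 3294 and 1223 CPM. Remaining AON nuclei also had 3102 CPM (2946 to 3263) of *Nlgn1*. The log2 ratio was 1.64, and 2.03 without the deepest AON nucleus.

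*Nlgn2*, the neuroligin of inhibitory synapses, measured 87.7 CPM (71.2 to 107, 98 UMIs) in AON and 79.9 CPM (68.8 to 92.2, 186 UMIs) in pPCx projection neurons, a ratio of 1.10 (0.851 to 1.41). Nuclei ranged from 0 to 226 CPM and from 0 to 224 CPM, respectively, and the groups overlapped throughout. *Nlgn3* lay at 11.6 CPM (13 UMIs) in AON and 21.9 CPM (51 UMIs) in pPCx, a ratio of 0.531 (0.265 to 0.991). *Nlgn3* is X-linked and the libraries appeared to differ in sex: *Xist* counted 0 UMIs in AON and 1744 UMIs in pPCx projection neurons, and the Y-linked *Eif2s3y* 139 and 0 UMIs. Sex and injection site cannot be told apart for any gene.

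The summed levels of the neurexins lay within 2-fold between the libraries. *Nrxn3* measured 3419 CPM (3312 to 3530) in AON and 3810 CPM (3731 to 3890) in pPCx projection neurons. The nuclei differed more than the sums: the AON median was 1040 CPM, within a range of 0 to 51138 CPM, and the pPCx median was 3327 CPM, within 46.9 to 7005 CPM. The deepest AON nucleus alone held 52.3% of the AON *Nrxn3* UMIs, and without it the log2 ratio of AON over pPCx moved from -0.16 to -0.82. With each nucleus weighted equally it was 0.46, so the sums give no order. The highest AON nuclei, at 51138 and 39512 CPM, had only 2 and 3 excitatory UMIs. In the marker-rich nuclei the levels were 3293 CPM in AON and 3778 CPM in pPCx (a ratio of 0.871, 0.837 to 0.907). Their medians were 2290 and 3077 CPM, and the deepest nucleus held 59.3% of these AON UMIs. *Nrxn2* measured 154 CPM (132 to 179) in AON and 109 CPM (95.7 to 123) in pPCx, a ratio of 1.42 (1.16 to 1.73), with medians of 143 and 110 CPM per nucleus.

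*Lrrtm1*, an excitatory postsynaptic organizer, was at 66.2 CPM (52.0 to 83.1) in AON and 88.0 CPM (76.4 to 101) in pPCx projection neurons, with nuclei between 0 and 201 CPM and between 0 and 318 CPM. *Lrrtm3* was at 50.1 CPM (37.9 to 65.1) and 87.2 CPM (75.6 to 100), but its UMIs came from few nuclei. It was detected in 5 of 25 AON projection neurons, 1 of which held 60.7% of the 56 UMIs, and in 32 of 59 pPCx projection neurons.

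The pPCx projection neurons fell apart by *Ebf1*, a transcription factor gene, and *Cntn6*, which codes for a contactin adhesion molecule. Their summed level was at most 100.4 CPM in 22 nuclei and at least 1433 CPM in the other 37, and 1000 CPM was used to separate these as *Ebf1*/*Cntn6*-low and *Ebf1*/*Cntn6*-high. The study listed both genes as specific to its M1 type of MCs. By inferred transcription factor activity, however, it classed most pPCx projection neurons as its M2 type. How the division used here relates to that classification was not tested. Of the 8 members tested, 3 were 2-fold or more higher in the high nuclei (*Lrrtm3*, *Lrrtm4* and *Nlgn3*) and 0 were lower, where 10.2% and 5.58% of 9686 genes were that much higher and lower. The median log2 ratio was 0.61 over the members and 0.11 over all tested genes. Both groups came from the same mouse and library, and their median depths were 31440 and 41131.5 UMIs.

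*Lrrtm4* measured 1636 CPM (2133 UMIs) in *Ebf1*/*Cntn6*-high and 48.8 CPM (50 UMIs) in *Ebf1*/*Cntn6*-low nuclei, 33.5-fold higher (25.3 to 45.3). The medians were 1232 and 16.6 CPM, and 24 of 37 high nuclei exceeded the highest low nucleus at 794 CPM. The level in the low nuclei lay within the counting interval of the remaining AON nuclei. *Lrrtm3* measured 153 CPM (200 UMIs) and 2.93 CPM (3 UMIs), a ratio of 52.4 (17.7 to 256). All 29 high nuclei in which it was detected lay above the highest low nucleus, which had 20.01 CPM, and 8 high nuclei had 0 UMIs. *Lrrtm4* and *Lrrtm3* levels correlated across the 59 nuclei with a Spearman rho of 0.59, into which the division enters. Within the 37 high nuclei rho was 0.14, and across the 14 marker-rich AON projection neurons it was -0.15. These are descriptions of nuclei that share a library and differ in depth.

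*Nrxn3*, coding for a presynaptic partner of both LRRTM proteins, had the other order: 2918 CPM in high and 4944 CPM in low nuclei, a ratio of 0.590 (0.566 to 0.616). Its medians were 2908 and 4345 CPM, and the ranges of 46.9 to 7005 CPM and 2452 to 7003 CPM overlapped. The 46.9 CPM came from 1 high nucleus, and the next lowest high nucleus was at 1491 CPM. *Nrxn2* was at 130 and 81.0 CPM, a ratio of 1.61 (1.23 to 2.12). *Nlgn1* at 1307 and 1103 CPM and *Nlgn2* at 81.3 and 78.1 CPM differed by 1.19-fold (1.10 to 1.28) and 1.04-fold (0.772 to 1.41). *Lrrtm1* was at 102 and 70.3 CPM, 1.45-fold (1.08 to 1.96). *Nlgn3* was at 28.4 and 13.7 CPM, and its ratio of 2.08 rested on 37 and 14 UMIs (1.10 to 4.16).

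**Figure D2:**
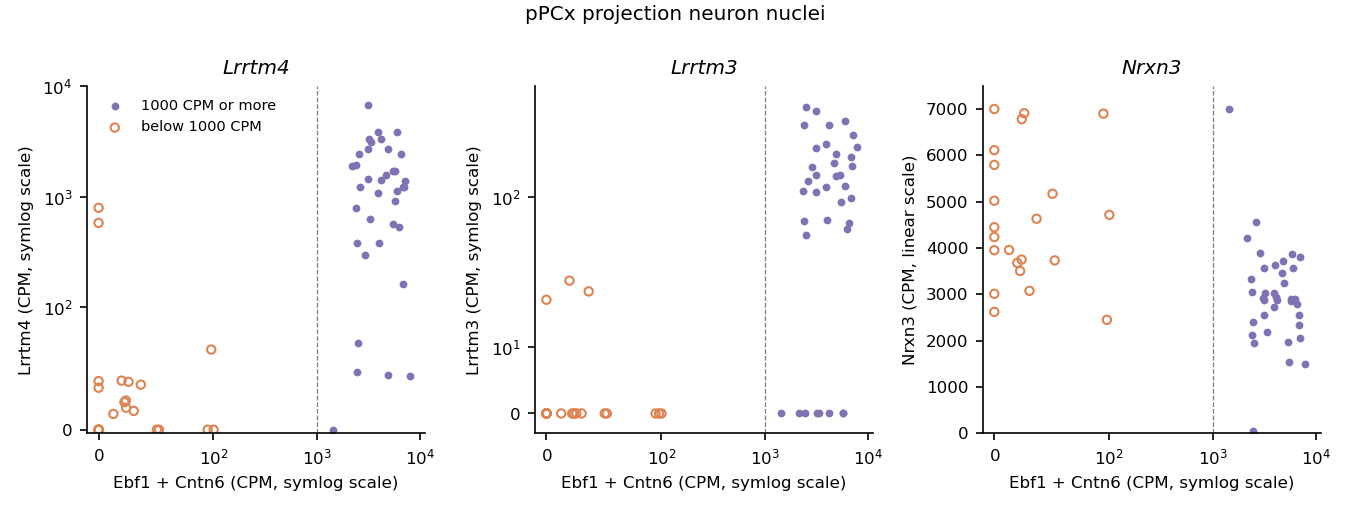
CPM of *Lrrtm4* and *Lrrtm3* (symlog axes) and of *Nrxn3* (linear axis) in each of the 59 pPCx projection neurons against the summed CPM of *Ebf1* and *Cntn6* (symlog axis); the dashed line marks 1000 CPM, filled points are the 37 nuclei above it and open points the 22 below it. *Lrrtm3* was detected in 29 filled and 3 open points, and *Nrxn3* medians were 2908 CPM in the filled and 4345 CPM in the open points.

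In the AON library 1 of 25 projection neurons passed the limit, at 1096 CPM, but it had 13.0 CPM of *Cntn6* (1 UMI), 26.1 CPM of *Lrrtm4* and 0 UMIs of *Lrrtm3*, while the median *Cntn6* level of the pPCx high nuclei was 2555 CPM. The lowest *Cntn6* level of the pPCx high nuclei was 46.9 CPM, in a nucleus with 46.9 CPM of *Lrrtm4* and 0 UMIs of *Lrrtm3*. The AON nuclei had no gap like that of the pPCx nuclei, and the highest counted as low was at 608 CPM. Within marker-rich *Ebf1*/*Cntn6*-low nuclei (13 AON, 18 pPCx), *Lrrtm4* measured 49.7 CPM in AON and 44.0 CPM in pPCx, a ratio of 1.13 (0.730 to 1.75), in place of the 17.2-fold difference over all projection neurons. *Nlgn1* remained higher in AON, at 4046 against 1085 CPM (3.73-fold, 3.48 to 4.00), and 8 of 13 AON nuclei exceeded the highest pPCx nucleus at 2217 CPM. *Lrrtm3* turned from lower to higher in AON, at 59.2 CPM (56 UMIs in 5 nuclei) against 3.07 CPM (3 UMIs), a ratio of 19.3 (6.27 to 96.3), with 60.7% of the 56 UMIs from 1 nucleus. With a limit of 200 CPM, which leaves 11 AON nuclei, the ratios were 1.17 for *Lrrtm4*, 4.10 for *Nlgn1* and 21.4 for *Lrrtm3*. *Nrxn2* was at 148 and 81.9 CPM (1.81-fold, 1.36 to 2.41), *Nrxn3* at 3555 and 4969 CPM (0.715, 0.684 to 0.748) and *Nlgn2* at 93 and 80.8 CPM (1.15, 0.839 to 1.58). Of the 7 members tested, 2 were 2-fold or more higher in AON and 0 were lower, where 7.24% and 6.04% of 8581 genes were.

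**Figure D3:**
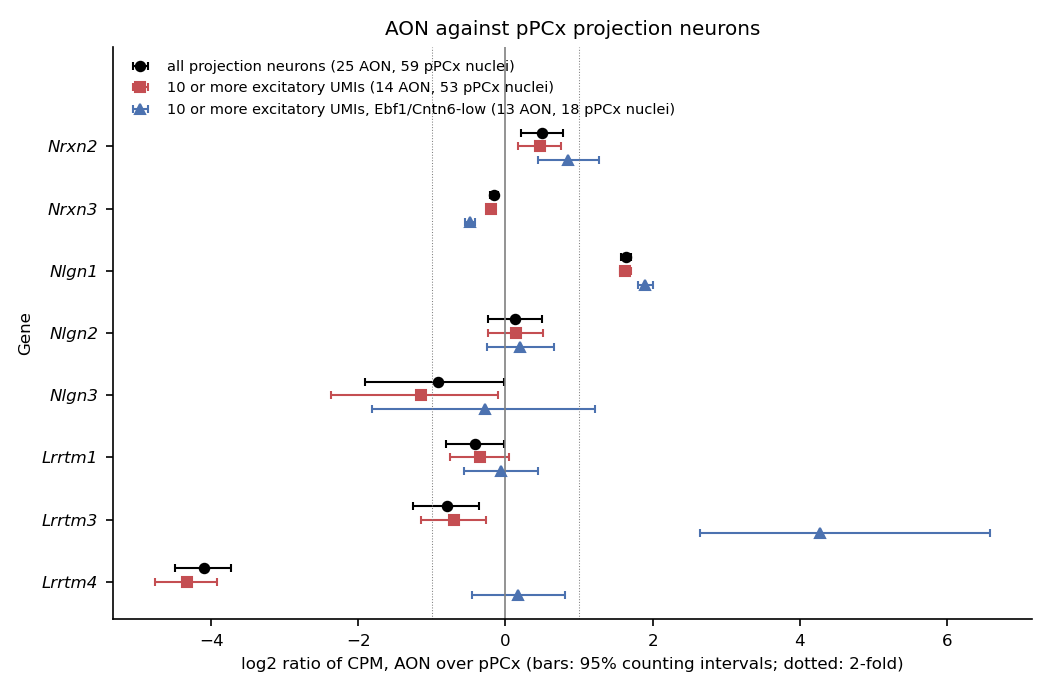
Log2 ratio of CPM of each gene in AON over pPCx projection neurons, for all nuclei (circles), for nuclei with 10 or more excitatory UMIs (squares) and for those of them that were *Ebf1*/*Cntn6*-low (triangles); bars are exact 95% counting intervals, dotted lines mark 2-fold, and *Lrrtm2* is left out because of its 6 UMIs. The *Nlgn1* ratio was 3.11, 3.10 and 3.73, while that of *Lrrtm4* moved from 0.0582 to 1.13.

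The spread of *Nlgn1* among AON projection neurons went with *Barhl2*, a homeobox transcription factor gene that the study used to mark a TC type. This division was chosen after the values had been seen. Of the 14 marker-rich AON nuclei, 7 had a *Barhl2* UMI. *Nlgn1* measured 7450 CPM in these and 1381 CPM in the 7 without (5.39-fold, 5.00 to 5.83), with medians of 6841 and 473 CPM. The *Barhl2* nuclei ranged from 2563 to 13445 CPM and the others from 39.1 to 15836 CPM, so that the highest nucleus of all had no *Barhl2* UMI. *Nlgn2* measured 138 and 59.3 CPM (2.33-fold, 1.51 to 3.63). All 7 *Barhl2* nuclei, at 79.4 to 192 CPM, lay above the 7 others, at 0 to 72.8 CPM. *Nrxn3* was at 2413 and 3854 CPM, where the second group held the deepest nucleus and had the lower median (1040 against 2359 CPM). *Lrrtm3* was at 113 and 17.6 CPM (45 and 11 UMIs), detected in 3 and 2 of the 7 nuclei. A single *Barhl2* nucleus held 75.6% of the 45 UMIs, and without it the ratio was 1.79 (0.705 to 4.56), below 2-fold. *Nrxn2* was at 178 and 135 CPM (1.32, 0.951 to 1.84) and *Lrrtm1* at 67.7 and 70.5 CPM (0.961, 0.572 to 1.59). Of the 7 members tested, 3 were 2-fold or more higher in *Barhl2* nuclei and 0 were lower, where 9.89% and 10.6% of 6156 genes were.

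Within the AON library, projection neurons had more *Nlgn2* and much less *Lrrtm4*, *Lrrtm3* and *Nrxn3* than GABAergic nuclei. Of the 8 members tested, 1 was 2-fold or more higher in projection neurons and 4 were lower, where 15.2% and 16.1% of 9808 genes were (31.3% in either direction). The median log2 ratio was -1.15 over these members and -0.06 over all tested genes. The GABAergic nuclei carried interneuron markers (*Th*, *Calb2*, *Meis2*, *Pvalb*) at a summed 3734 CPM against 46.5 CPM in projection neurons. *Pvalb* was at 0 in the GABAergic nuclei. For sparse label in granule and periglomerular cells after AON and piriform injection, the study proposes infected migrating immature neurons or spread of virus. Whether the GABAergic nuclei here represent the interneurons of the OB was not tested.

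*Nlgn2* was 4.29-fold higher in AON projection neurons (2.76 to 6.89) than in GABAergic nuclei, at 87.7 against 20.5 CPM (98 and 26 UMIs). It was detected in 15 of 25 projection neurons and 19 of 47 GABAergic nuclei, with medians of 53.3 and 0 CPM. After thinning to 3000 UMIs, 2 of 25 (8%) and 2 of 47 (4.26%) had a UMI, and the log2 ratio moved from 2.08 to 0.91, short of 2-fold. The nuclei overlapped, and 4 projection neurons exceeded the highest GABAergic nucleus at 176 CPM. The pPCx projection neurons had a similar level of 79.9 CPM, 3.91-fold that of the AON GABAergic nuclei (2.58 to 6.14).

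*Lrrtm4* was 49.0-fold higher in GABAergic nuclei (38.0 to 64.2), at 2673 CPM (3398 UMIs) against 54.6 CPM. Its GABAergic nuclei ranged from 0 to 8766 CPM with a median of 1840, and 34 of 47 exceeded every AON projection neuron. *Nrxn3* was 5.27-fold higher (5.09 to 5.46) at 18022 CPM (22910 UMIs), and it was detected in 47 of 47 GABAergic nuclei, at 3931 to 33927 CPM with a median of 16141. Of the AON projection neurons, 2 exceeded this range; they had 3 or fewer excitatory UMIs, and the highest marker-rich nucleus was at 7266 CPM. The log2 ratio of projection neurons over GABAergic nuclei was -2.40 for *Nrxn3*, and -3.06 without the deepest projection neuron.

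*Lrrtm3* was 9.84-fold higher in GABAergic nuclei (7.48 to 13.2), at 493 CPM, where it was detected in 33 of 47 nuclei with a median of 187 and a highest value of 1595 CPM. *Nlgn3* was 2.84-fold higher (1.496 to 5.77), at 33.0 CPM (42 UMIs) against 11.6 CPM (13 UMIs), but its median was 0 in both classes and its log2 ratio moved from -1.47 to -0.77 with nuclei weighted equally and to -0.31 after thinning, both short of 2-fold. *Lrrtm2* was at 14.2 CPM (18 UMIs in 14 nuclei) against 0.895 CPM (1 UMI), with 19 UMIs in all below the minimum for a call. *Nrxn2* at 276 CPM (248 to 307) against 154 CPM, *Nlgn1* at 2758 against 3787 CPM and *Lrrtm1* at 39.3 against 66.2 CPM lay within 2-fold.

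**Figure D4:**
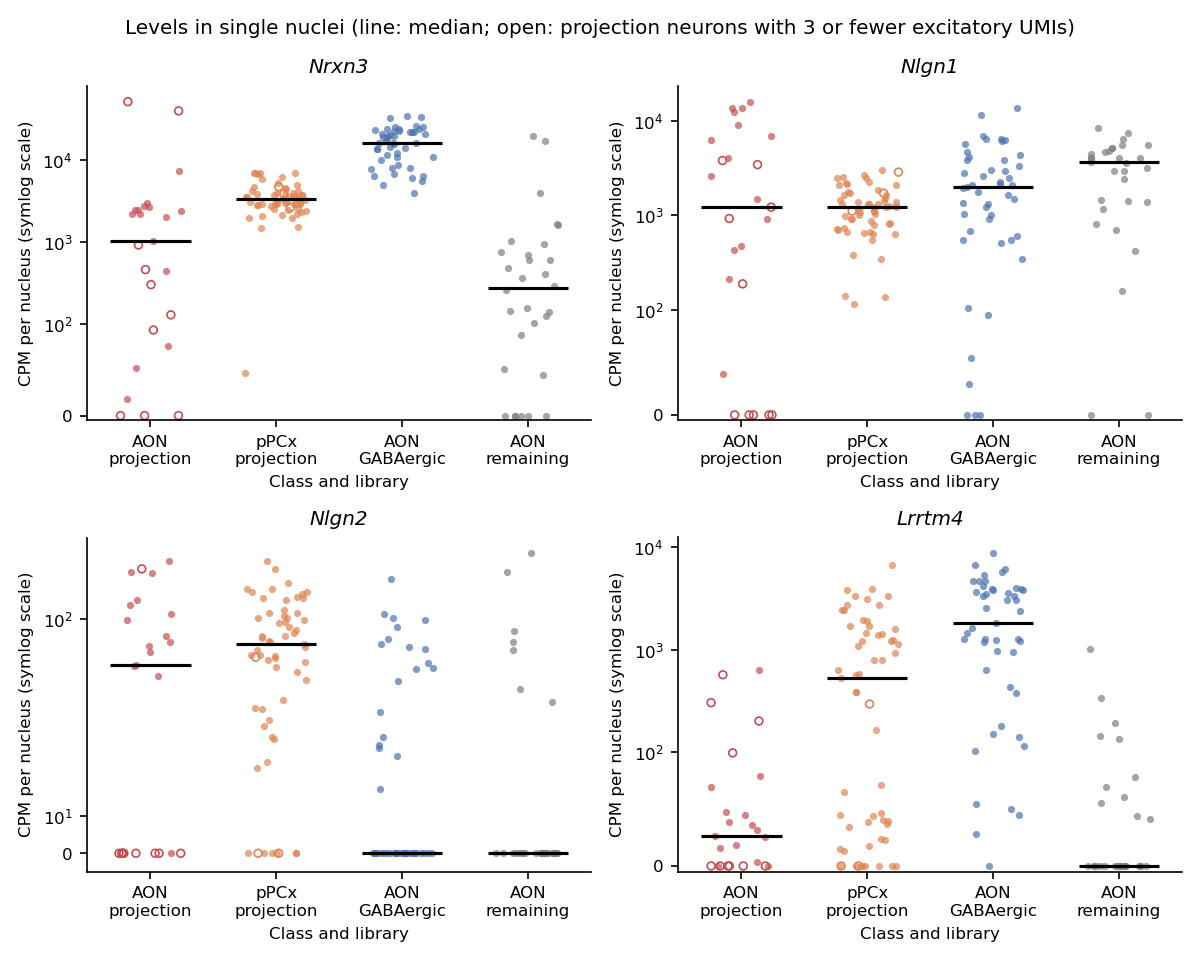
CPM of *Nrxn3*, *Nlgn1*, *Nlgn2* and *Lrrtm4* in each nucleus (symlog axes) of 4 groups; horizontal lines are medians, and open circles are projection neurons with 3 or fewer excitatory UMIs. The *Nrxn3* medians were 1040, 3327, 16141 and 275 CPM from left to right, and the *Lrrtm4* medians 26.1, 528, 1840 and 0 CPM.

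The pPCx projection neurons could be set against the AON GABAergic nuclei only across libraries, so that library and class cannot be told apart. Of the 9 members tested, 2 were 2-fold or more higher in the projection neurons, *Nlgn2* and *Lrrtm1* (2.24-fold, 1.64 to 3.11), and 6 were lower, where 17.8% and 14.1% of 11501 genes were. The lower members were *Nrxn2* (2.54-fold), *Nrxn3* (4.73-fold), *Nlgn1* (2.27-fold), *Lrrtm2* (6.59-fold), *Lrrtm3* (5.66-fold) and *Lrrtm4* (2.85-fold). The same AON GABAergic nuclei serve both comparisons. The 2 pPCx GABAergic nuclei had 15219 CPM of *Nrxn3* and 8783 CPM of *Lrrtm4*, against 3810 and 938 CPM in the pPCx projection neurons, and 16.8 CPM of *Nlgn2* (1 UMI) against 79.9 CPM. *Lrrtm3* had no such difference within the pPCx library, at 83.8 CPM (5 UMIs) in the GABAergic nuclei and 87.2 CPM in the projection neurons, a ratio of 1.04 for the latter over the former (0.439 to 3.24).

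The 30 remaining AON nuclei were mostly glia by marker: 18 had astrocyte and 8 oligodendrocyte markers, and 4 had neither. *Nrxn3* was at 790 CPM (712 to 874) in them, but 220 of its 379 UMIs came from the 4 nuclei with neither marker list (7121 CPM, up to 19535 CPM in 1 nucleus). In the 26 glial nuclei alone it was at 354 CPM. *Nlgn2* was at 18.8 CPM (9 UMIs) in all 30 nuclei, *Lrrtm1* at 27.1 CPM (13 UMIs) and *Lrrtm3* at 148 CPM (71 UMIs). Of the 8 members tested, AON projection neurons had 3 at 2-fold or more higher levels, where 18.2% of 8579 genes were: *Nrxn3* (4.33-fold, 3.89 to 4.82), *Nlgn2* (4.67-fold, 2.36 to 10.5) and *Lrrtm1* (2.44-fold, 1.35 to 4.80). They had 1 at a lower level, *Lrrtm3* (2.95-fold, 2.05 to 4.27), where 23.4% of genes were. GABAergic nuclei over remaining nuclei had 3 of 9 members higher and 0 lower, where 18.1% and 21.1% of 8926 genes were (39.2% in either direction). These were *Nrxn3* (22.8-fold, 20.6 to 25.3), *Lrrtm3* (3.33-fold, 2.60 to 4.32) and *Lrrtm4* (47.5-fold, 32.6 to 72.2). Against the 26 glial nuclei alone, *Nrxn3* was 9.65-fold higher in AON projection neurons (8.24 to 11.4) and 50.9-fold higher in GABAergic nuclei (43.5 to 59.8).

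The glial nuclei were not alike. *Nlgn1* measured 4206 CPM in astrocyte-marker and 1070 CPM in oligodendrocyte-marker nuclei (3.93-fold, 3.37 to 4.61), and 17 of 18 of the former exceeded the highest of the latter at 2416 CPM. *Nrxn2* was at 261 and 79.3 CPM (3.29-fold, 1.84 to 6.32) and *Nrxn3* at 555 and 45.3 CPM (151 and 8 UMIs, a ratio of 12.2, 6.06 to 28.9). *Lrrtm3* had the other order, at 58.8 CPM (16 UMIs) and 277 CPM (49 UMIs), a ratio of 0.212 (0.113 to 0.379). *Lrrtm4* was at 66.1 CPM (18 UMIs, 44.4% of them from 1 nucleus) and 28.3 CPM (5 UMIs). *Nlgn2* counted 9 and 0 UMIs, below the minimum for a call. Of the 5 members tested, 4 were 2-fold or more higher in the astrocyte-marker nuclei and 1 was lower, where 32.1% and 18.5% of 4036 genes were.

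The order of the 4 larger groups differed from member to member. *Nrxn3* descended from GABAergic nuclei over both groups of projection neurons to remaining nuclei. *Lrrtm3* and *Lrrtm4* were also highest in GABAergic nuclei and lowest in AON projection neurons, but the *Lrrtm4* levels of AON projection neurons and remaining nuclei did not differ beyond counting error (0.970, 0.607 to 1.59). *Nlgn2* was about equal in both projection neuron groups and about equal in GABAergic and remaining nuclei (1.09, 0.495 to 2.64). The summed level of *Nlgn1* was highest in AON and lowest in pPCx projection neurons, while its median per nucleus was highest in the remaining nuclei (3642 CPM).

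By the root mean square difference of centred log2 levels over the 4 larger groups, the most similar of 6709 genes were found for 8 members, *Lrrtm2* being left out for its few UMIs. They were *Stk39* and *Arfrp1* for *Nrxn2* (0.0353 and 0.0463), *Frmd3* and *5730522E02Rik* for *Nrxn3* (0.229 and 0.241), and *Disp1* and *Lrrc4c* for *Nlgn1* (0.136 and 0.187). *C030047K22Rik* and *Tbc1d30* were nearest to *Nlgn2* (0.0998 and 0.112), *Serbp1* and *Ptprg* to *Nlgn3* (0.0791 and 0.0886), and *2310040G07Rik* and *Gmcl1* to *Lrrtm1* (0.0365 and 0.0435). *Kcnt2* and *Iqck* were nearest to *Lrrtm3* (0.148 and 0.155), and *Pde1a* and *Gm45904* to *Lrrtm4* (0.602 and 0.750), whose pattern was thus matched least closely. With 4 values per gene and 6709 genes searched, close matches can arise by chance. Counting error did not enter the measure, and some matches had few UMIs, such as *Arfrp1* with 120 UMIs. *Lrrc4c*, itself a synaptic adhesion gene, measured 1081 CPM in AON and 424 CPM in pPCx projection neurons.

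The catenin genes that hold 3 of the LRRTM genes were measured in the same groups. *Ctnna3*, the host of *Lrrtm3*, measured 155 CPM in AON and 269 CPM in pPCx projection neurons and 942 CPM in AON GABAergic nuclei, 6.09-fold higher there than in AON projection neurons (5.19 to 7.18). *Ctnna2*, the host of *Lrrtm1*, measured 2676, 3212 and 1767 CPM in the same groups, and *Ctnna1*, the host of *Lrrtm2*, 10.7, 13.7 and 38.5 CPM. *Lrrtm3* and *Lrrtm1* had the same order of these 3 groups as their hosts. Of these 3 groups, *Lrrtm2* and *Ctnna1* were both highest in GABAergic nuclei, and neither differed between the projection neuron groups beyond counting error. The remaining AON nuclei had higher levels of both, at 20.8 CPM (10.0 to 38.3, 10 UMIs) for *Lrrtm2* and 171 CPM (136 to 212) for *Ctnna1*. For *Lrrtm2* the difference from GABAergic nuclei lay within counting error. Whether reads of a host were counted for its guest was not tested.

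Genes for ligands, scaffolds and splice regulators of neurexins and neuroligins, for other organizers and for the catenin hosts were grouped in 6 lists, called partner lists. Of all tested genes, 16.5% differed 2-fold or more between the projection neurons of the libraries (6.66% higher and 9.82% lower in AON). Between AON and pPCx projection neurons, 1 of 9 tested ligands and cofactors was lower in AON (*Cbln2*, a cerebellin that bridges neurexins to other receptors, 2 against 29 UMIs). None of the 10 postsynaptic scaffolds, 5 presynaptic scaffolds, 3 splice regulators and 3 catenin hosts passed 2-fold. Of 14 other organizers, 2 were higher in AON, *Ntng2* (2.97-fold, 1.86 to 4.78) and *Lrrc4c* (2.55-fold, 2.34 to 2.77), and 2 were lower, *Slitrk1* (5.16-fold, 1.88 to 19.8) and *Lrfn5* (2.62-fold, 2.32 to 2.97). The median log2 ratios of these lists were -0.08 for ligands and cofactors, 0.06 for postsynaptic and -0.17 for presynaptic scaffolds, -0.02 for other organizers, 0.04 for splice regulators and -0.32 for catenin hosts.

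Between AON projection neurons and AON GABAergic nuclei, 3 of 7 ligands and cofactors were higher and 1 was lower (median log2 ratio 0.55), where 15.2% of all tested genes were higher and 16.1% lower. *Nxph1*, a neurexophilin that binds neurexins, measured 10.7 CPM in projection neurons and 1132 CPM in GABAergic nuclei, 105-fold higher in the latter (60.2 to 204). *Mdga1*, whose product blocks neuroligins, had the reverse order at 107 and 23.6 CPM (4.55-fold, 3.03 to 7.03), as had *Gpc4*, a heparan sulfate proteoglycan that binds LRRTM4, with 17 and 7 UMIs (2.76-fold, 1.09 to 7.88). *Cbln4* counted 21 and 1 UMIs, a ratio of 23.9 (3.84 to 988). Of the 10 postsynaptic scaffolds, 1 was higher and 4 were lower, the latter with *Shank2* (10.7-fold), *Dlg1* (3.27-fold) and *Dlg3* (3.19-fold) in front (median -0.47). Of the 5 presynaptic scaffolds, *Apba2* (2.41-fold) and *Apba1* (2.11-fold) were higher and *Cask*, which binds neurexin tails, was lower (2.34-fold; median 0.12).

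The other organizers had 4 higher and 6 lower members of 17 (median -0.82), against the same 15.2% and 16.1% of all genes. *Ptprd*, a presynaptic receptor phosphatase, measured 39325 CPM in projection neurons and 262 CPM in GABAergic nuclei, 150-fold higher in the former (135 to 168). Its postsynaptic ligand gene *Il1rapl1* measured 175 and 6704 CPM, 38.2-fold higher in GABAergic nuclei (33.2 to 44.3). *Slitrk1* (10.99-fold) and *Slitrk5* (39.6-fold, 1 against 45 UMIs), from a family that binds the same phosphatases, were also higher in GABAergic nuclei. *Ntng1* was 9.54-fold higher in projection neurons (8.56 to 10.7) and *Ntng2* 3.15-fold (1.77 to 5.84). The splice regulators *Khdrbs3* (3.15-fold) and *Khdrbs2* (3.02-fold), RNA-binding proteins that act on neurexin transcripts, were higher in projection neurons, as 2 of 3 (median 1.59), and 2 of 3 catenin hosts were lower (median -1.80). The 3′ counts do not tell neurexin isoforms apart.

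In the other contrasts the lists are given as counts of tested genes 2-fold or more higher and lower in the first group. In AON projection neurons over remaining nuclei these were 3 and 2 of 7 ligands and cofactors, 5 and 2 of 9 postsynaptic scaffolds, 1 and 2 of 5 presynaptic scaffolds, 4 and 4 of 12 other organizers, 2 and 0 of 3 splice regulators and 0 and 2 of 3 catenin hosts, where 18.2% and 23.4% of all tested genes were. In GABAergic over remaining nuclei they were 2 and 1 of 6, 5 and 1 of 10, 1 and 2 of 5, 7 and 3 of 17, 1 and 0 of 3, and 0 and 1 of 3, in the same order, where 18.1% and 21.1% of all genes were. In pPCx projection neurons over AON GABAergic nuclei they were 3 and 2 of 8, 0 and 3 of 10, 2 and 1 of 5, 3 and 8 of 18, 1 and 0 of 3, and 0 and 2 of 3, where 17.8% and 14.1% of all genes were.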

How the data were processed

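The deposited matrices hold raw UMI counts, which the authors obtained from the reads with Cell Ranger (version 3.1.0 in the matrix header). The submitters' processing notes name human genome builds only, which cannot be the build of these mouse libraries, and the mouse build, the counting of introns and the use of strand are not given in the sources used here. Coordinates came from GENCODE M21, in which 30934 of 31053 identifiers (99.6%) were found.

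Barcodes with fewer than 1000 genes or over 5% mitochondrial UMIs were removed, the latter applying to 0 nuclei. Doublets were not called, given the few nuclei. UMIs were summed per class and library and scaled to CPM. Log2 ratios were taken with 0.5 UMI added to each sum, and a gene was counted as higher or lower at 2-fold or more if both groups together held at least 20 UMIs. Poisson, conditional binomial (for ratios) and Clopper-Pearson (for shares) intervals were exact at 95% and cover counting error only. Glial marker lists were assigned at 5 or more UMIs. The scripts (Python 3.11.15, numpy 2.4.6, scipy 1.17.1) were tested on simulated data.

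All 9 members, the host genes, up to 3 genes per partner list and direction with an interval that excludes 1, and the 2 most similar genes with at least 100 UMIs were named, the partner genes for AON projection neurons over pPCx projection neurons and over AON GABAergic nuclei. A partner gene that this rule names is not reported here. The members, lists, class rule and the *Ebf1*/*Cntn6* limit were chosen with earlier results of these data known. Of the 11 alternatives, 9 were planned and 2 were added after seeing the data: projection neurons with 10 or more excitatory UMIs, and leaving out the deepest AON nucleus. The values for glial nuclei alone, for a limit of 200 CPM and without the nucleus richest in *Lrrtm3* were also added after seeing the data.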

Additional observations from a re-analysis of the deposited data

Results flagged for a closer look

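*Nlgn1* had opposite orders in the libraries: the log2 ratio of projection neurons over GABAergic nuclei was 0.46 in AON and -0.87 in pPCx. The difference was not tested, and the pPCx value rests on 2 GABAergic nuclei. The medians per nucleus over all projection neurons had the same order in both libraries, at 1215 against 1974 CPM in AON and 1223 against 1675 CPM in pPCx. In marker-rich projection neurons, however, the medians were 3294 CPM in AON and 1223 CPM in pPCx. The orders against GABAergic nuclei were then opposite again.

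Barcodes that were left out for having fewer than 1000 genes also carried UMIs of the members above the 3 UMIs that a count of 0 allows. In the AON library, 86 such barcodes with 94666 UMIs held 9 UMIs of *Nrxn2*, 194 UMIs of *Nrxn3* (2049 CPM), 116 UMIs of *Nlgn1* (1225 CPM), 4 UMIs of *Lrrtm1*, 7 UMIs of *Lrrtm2*, 4 UMIs of *Lrrtm3* and 8 UMIs of *Lrrtm4*. In the pPCx library, 11 such barcodes with 10682 UMIs held 16 UMIs of *Nrxn3*, 13 UMIs of *Nlgn1* and 78 UMIs of *Lrrtm4*, of which 77 came from 1 barcode.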

How the results depend on the processing

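Of 462 member values under 11 alternatives, 383 stayed within their counting interval, 78 moved beyond it and 1 that had been past 2-fold changed sign. Counting values within 2-fold too, 20 changed sign. The value past 2-fold was *Lrrtm1* in AON projection neurons over remaining nuclei, at a log2 ratio of -0.15 when nuclei were thinned to 3000 UMIs. Thinning, which leaves fewer UMIs and so fewer members at the minimum, also changed the number of members past 2-fold from 4 to 1 in AON projection neurons over remaining nuclei and from 8 to 5 in pPCx projection neurons over AON GABAergic nuclei. The log2 ratio of AON over pPCx projection neurons ranged over the alternatives from 1.59 to 2.03 for *Nlgn1*, from -4.32 to -2.89 for *Lrrtm4*, from -0.82 to 0.49 for *Nrxn3* and from -1.39 to 0.27 for *Nlgn2*, so no order is given for the last pair. For *Lrrtm1* in AON projection neurons over GABAergic nuclei the range was -0.37 to 0.88. For the same comparison it ranged from 0.91 to 2.21 for *Nlgn2*, from -3.06 to -1.73 for *Nrxn3* and from -5.80 to -4.20 for *Lrrtm4* and from -1.85 to -0.31 for *Nlgn3*. No paired analysis was possible because the AON and pPCx groups hold 1 library each. Depth limits *Lrrtm2*, *Nlgn3* and *Nlgn2*, whose UMIs in a single nucleus were few.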
